A study of Mus musculus with 30 samples.

Results

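The subventricular zone (SVZ) of ganciclovir-treated mice with and without the NestinTK transgene was compared in 8 RNA-seq libraries, 5 from NestinTK+ GCV mice and 3 from NestinTK- GCV mice. They were chosen by genotype and treatment from the sample labels, among 15 SVZ libraries and 30 libraries in the whole series, which also include striatum. Each library came from the dissected SVZ of 1 mouse. The question was how the SVZ transcriptome differs when the transgene and the drug are present together, against the drug alone.

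The transgene places a viral thymidine kinase under the second intron of the rat Nestin gene, so that it is made where that regulatory element is active. The kinase turns ganciclovir (GCV) into a compound that kills dividing cells. NestinTK+ GCV mice carried the transgene and received GCV, whereas NestinTK- GCV mice were wild-type littermates that received the same drug. Per the study's methods the drug was delivered for 4 weeks by a subcutaneous osmotic minipump. The methods state that both sexes were used and give an age of 6 up to 8 weeks beside C57Bl/6 mice, and whether that age and background hold for the transgenic line is not clear from them. Every one of the 8 libraries had at least 1446 Xist counts and at most 6 counts on Y-linked genes, the pattern of female mice. The labels give no sex, age or batch for a library, and the transcript of the transgene itself was not analysed here. The NestinTK+ GCV libraries are called A1 to A5 and the NestinTK- GCV libraries G1 to G3, numbered in the order of deposit. SVZ libraries of 4 NestinTK+ PBS mice and 3 NestinTK- PBS mice, which received saline in place of the drug, are used below for reference levels and for an interaction test.

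In the adult SVZ, astrocyte-like stem cells that express Gfap and Nestin give rise to transit-amplifying cells marked by Egfr, which divide rapidly and form Dcx-positive neuroblasts. Neuroblasts leave the niche along the rostral migratory stream and become interneurons of the olfactory bulb. The niche also holds ciliated ependymal cells, vessels and microglia, and it borders the striatum, whose spiny neurons and myelinating oligodendrocytes are easily included in a dissection.

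The counts of the 8 libraries summed to between 8360810 and 9595103 in NestinTK+ GCV mice and between 9151604 and 13624259 in NestinTK- GCV mice, and 16652 to 18370 genes were detected. Total counts, genes detected, the mitochondrially encoded share and the share of the choroid plexus transcript Ttr were each compared by a two-sided exact permutation test over 56 ways to divide the libraries, for which the smallest possible p is 0.0357. The smallest of the 4 p-values was 0.0714, for total counts, and it was 0.286 after Benjamini-Hochberg adjustment. Mitochondrially encoded reads made up 13.1% to 17.0% in NestinTK+ GCV mice and 6.69% to 15.2% in NestinTK- GCV mice, and G3 had the lowest share. Ttr held at most 0.0187% of the reads of any of the 8 libraries, against up to 9.88% in the PBS libraries. It held 4.49% and 9.88% in NestinTK- PBS replicates 1 and 2 and 9.83% in NestinTK+ PBS replicate 1. The other PBS libraries had at most 0.0789%. The PBS levels and the interaction test below include these libraries, and their CPM was scaled to totals that hold the choroid plexus reads. The labels describe the cells as neural precursor cells, yet the 35 spiny neuron genes held 10170 to 29280 CPM (counts scaled to the library total) in NestinTK+ GCV libraries and 13894 to 25677 CPM in NestinTK- GCV libraries, and the dopamine receptor gene Drd1 was at 140 CPM or more in all 8. The libraries are therefore described here as SVZ tissue. Correlations of log2 CPM between libraries ran from 0.736 to 0.801 within NestinTK+ GCV mice, from 0.793 to 0.803 within NestinTK- GCV mice and from 0.741 to 0.819 between the groups, so correlations between the groups reached as high as those within them.

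Of the tested genes, 1 of 28 neuroblast genes, 2 of 28 mitosis genes and 2 of 30 oligodendrocyte genes were called lower in NestinTK+ GCV than in NestinTK- GCV mice, against 0.24% of all genes tested. Prokr2, a receptor that guides migrating neuroblasts, had no read in any of the 5 NestinTK+ GCV libraries, and Top2a and Pimreg, which act in mitosis, were at or near 0 in them. Prokr2 and Pimreg passed the expression filter described below only through the NestinTK- GCV libraries. The call counts of these lists are therefore not free of the filter. All 30 oligodendrocyte genes had a negative change, against 6863 of the 14156 genes tested, with Opalin and Cryab called. In the saline-treated PBS libraries the median of the summed oligodendrocyte level lay within the NestinTK+ GCV range. No gene passed an adjusted threshold in the main test. In bulk tissue, fewer cells of a type and less RNA per cell cannot be told apart.

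Of 53278 genes in the count table, 14156 had more than 1 CPM in at least 3 of the 8 libraries and were tested with edgeR's quasi-likelihood test. A gene was called at an unadjusted p of at most 0.01 and a change of at least 2-fold, the thresholds the study's methods state. By this rule 34 genes were called lower in NestinTK+ GCV mice, or 0.24% of the genes tested, and 40 were called higher, or 0.283%. With Benjamini-Hochberg adjustment 0 genes had an adjusted p under 0.05 in edgeR's test, and every called gene had an adjusted p of 0.999. An unadjusted p under 0.05 was given to 222 genes in the lower direction, or 1.57%, and to 323 in the higher direction, or 2.28%. Both directions together made up 545 genes, or 3.85%, below the 5% that uniform p-values would give. On the same genes limma-voom also gave 0 genes at an adjusted p under 0.05 and DESeq2 gave 18, of which 5 were lower and 13 higher. The calls are accordingly a ranking of single genes and not a list controlled for multiple testing.

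The filter acts unequally on the groups. A gene without reads in NestinTK+ GCV mice was tested only if it exceeded 1 CPM in all 3 NestinTK- GCV libraries, whereas a gene without reads in NestinTK- GCV mice needed that level in 3 of 5 libraries. Of the genes called lower, 5 had 0 counts in every NestinTK+ GCV library and none had a NestinTK- GCV library at 0. Of the genes called higher, 20 had 0 counts in every NestinTK- GCV library, and 17 had at least 1 NestinTK+ GCV library at 0. The CPM ranges of the groups did not overlap for 32 of the 34 genes called lower and for 18 of the 40 called higher. Over all genes tested the ranges did not overlap for 3.07% of genes in the lower direction and 0.897% in the higher direction. The called genes were protein coding in 29 of 34 and in 26 of 40 cases.

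**Figure D1:**
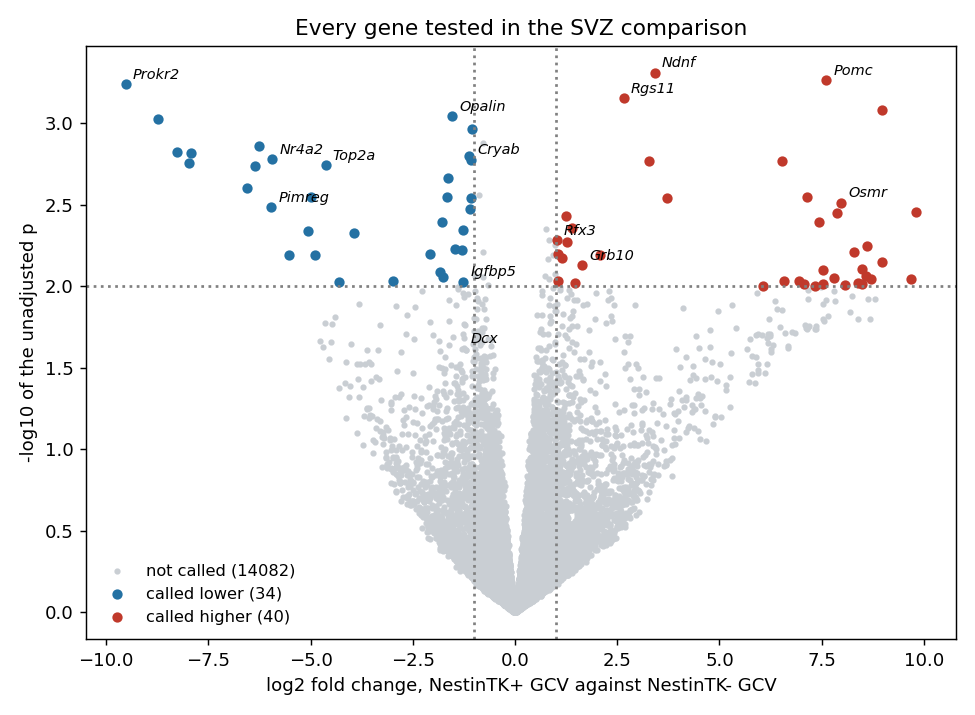
Each point is 1 of the 14156 genes tested, with the log2 fold change between NestinTK+ GCV and NestinTK- GCV mice on the horizontal axis and the −log10 of the unadjusted p on the vertical axis. Dotted lines mark the calling thresholds, blue and red points are the 34 genes called lower and the 40 called higher, and fitted changes beyond about 6 belong to genes with few or no reads in 1 group.

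Among neuroblast genes, Prokr2 (chromosome 2, 132337733 to 132385447, GRCm38) was at 0 counts in A1, A2, A3, A4 and A5 and at 12.9, 3.61 and 13.3 CPM in G1, G2 and G3. The groups did not overlap in CPM, the scale on which overlap is judged throughout. Against a floor of 3 counts in each NestinTK+ GCV library the level was at least 28.8-fold lower, with an unadjusted p of 0.000575 in edgeR's test. The 7 PBS libraries ranged from 1.90 to 12.1 CPM, with a median of 6.82.

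Igfbpl1 (chromosome 4, 45809468 to 45826923), which encodes a secreted protein related to the insulin-like growth factor binding proteins, did not enter the main test because G2 was below the filter. It was at 0, 0, 0.239, 0.104 and 0.12 CPM in A1 to A5, which together amounts to 4 reads, and at 27.0, 0.656 and 5.20 CPM in G1 to G3. Every NestinTK+ GCV library lay below every NestinTK- GCV library, but G2 exceeded the highest of them by little. With the filter set at 2 libraries its log2 fold change was −6.60, with an unadjusted p of 0.0018 and an adjusted p of 0.95 in edgeR's test. The PBS libraries ranged from 3.13 to 39.7 CPM.

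Other neuroblast genes had lower values without reaching the call. Dcx, the microtubule-associated protein that marks neuroblasts, was at 23.8, 22.1, 16.1, 15.1 and 21.8 CPM in A1 to A5 and at 97.1, 32.8 and 25.4 CPM in G1 to G3, or 19.8 ± 3.89 (SD, n = 5) against 51.8 ± 39.4 (SD, n = 3). All 5 NestinTK+ GCV libraries were below all 3 NestinTK- GCV libraries, with G1 far above G2 and G3. After TMM scaling of library sizes 3 of the 5 were below all NestinTK- GCV libraries. The log2 fold change was −1.25 ± 0.49 (SE), with an unadjusted p of 0.0239 in edgeR's test, and it was −0.41 without G1, the smallest change among the fits that left out 1 library. The PBS libraries had a median of 47.7 CPM.

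Sp8, a zinc finger factor of olfactory bulb interneurons, was at 0.676 CPM in A1, at 0 in A2 to A5, and at 3.01, 3.82 and 4.21 CPM in G1 to G3, so that the groups did not overlap. Dlx2, a homeobox factor of the same lineage, was at 13.1, 3.08, 12.5, 0.313 and 0 CPM in A1 to A5 and at 14.9, 18.2 and 18.6 CPM in G1 to G3. The Dlx2 groups did not overlap either, although A1 and A3 came close to G1. The unadjusted p in edgeR's test was 0.0219 for Sp8 and 0.278 for Dlx2.

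Over the 30 neuroblast genes, 28 were tested, 1 was called lower and 0 higher, and 5 had an unadjusted p under 0.05 in the lower direction, or 17.9%, against 1.57% of all genes tested. The median log2 fold change of the list was −0.43, against 0.02 over all genes tested. The remaining members with such a p, named after their values were seen, were Sox4, a transcription factor of new neurons, at 0.788 to 27.1 CPM against 54.5 to 59.9 CPM, and Stmn1, a tubulin-binding protein, at 28.4 to 87.5 CPM against 48.4 to 187 CPM. Of the 28, 21 had a negative and 7 a positive log2 fold change. Among the 7 were Ncam1, at 0.15, and Stmn4, at 0.09, also named after their values were seen. When 1 library was left out, the number of members with such a p ran from 1, without G1 or G3, to 6, without A2 or A3, and it was 2 without G2 and 3 without A4 or A5. With the genes tested kept it was 3 without G1, G3, A4 or A5. The summed level of the list was 1298 to 1553 CPM in NestinTK+ GCV libraries and 1626 to 2342 CPM in NestinTK- GCV libraries. The PBS libraries ranged from 1231 to 2579 CPM, with a median of 1980, and thus reached below as well as above both groups. Fezf1 was the other member that was not tested, with 3 reads in NestinTK+ GCV libraries and none in NestinTK- GCV libraries.

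Of the mitosis genes, Top2a had the smallest p. It encodes the topoisomerase that untangles replicated chromosomes (chromosome 11, 98992943 to 99024189). It was at 3.38, 0, 2.03, 0.834 and 0 CPM in A1 to A5 and at 38.2, 30.7 and 33.3 CPM in G1 to G3, or 1.25 ± 1.45 (SD, n = 5) against 34.1 ± 3.79 (SD, n = 3). The 3 NestinTK- GCV libraries lay close together and far above every NestinTK+ GCV library. The log2 fold change was −4.63 ± 1.19 (SE), with an unadjusted p of 0.0018 in edgeR's test. The call was kept when any of the 8 libraries was left out. The PBS libraries ranged from 4.44 to 70.0 CPM. Top2a shares exon bases with the gene model Gm23451.

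Pimreg, a regulator of the metaphase to anaphase transition (chromosome 11, 72042032 to 72047370), was at 0.225 CPM in A1, at 0 in A2 to A5, and at 2.79, 5.35 and 3.55 CPM in G1 to G3. The ratio of summed reads per total count was 81.3-fold lower, with a 95% exact interval of 22.1 to 679 that covers counting error only. The PBS libraries ranged from 1.19 to 8.44 CPM. Mki67, the proliferation marker Ki-67, was at 18.0, 8.99, 26.7, 4.07 and 7.66 CPM in A1 to A5 and at 52.2, 16.5 and 29.0 CPM in G1 to G3. These groups overlapped, since A1 and A3 exceeded G2, and the log2 fold change of −1.17 ± 0.67 (SE) had an unadjusted p of 0.105 in edgeR's test.

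Promoters of cell cycle genes often carry CCAAT boxes and the cell cycle homology element, and the windows of Top2a, which was called, and Mki67, which was not, are shown for this reason. Each runs from 250 bases before to 50 bases after the start of the gene in RefSeq's annotation of GRCm38.p6, on the minus strand, with CCAAT or its reverse ATTGG and TTTGAA or its reverse TTCAAA in capitals.
Top2a promoter, chr11:99024140-99024439: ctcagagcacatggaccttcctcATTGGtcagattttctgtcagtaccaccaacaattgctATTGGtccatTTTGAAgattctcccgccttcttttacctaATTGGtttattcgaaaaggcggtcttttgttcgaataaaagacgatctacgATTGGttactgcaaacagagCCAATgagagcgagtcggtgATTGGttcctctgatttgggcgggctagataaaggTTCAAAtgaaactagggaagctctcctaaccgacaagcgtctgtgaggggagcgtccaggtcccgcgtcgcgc
Mki67 promoter, chr7:135716330-135716629: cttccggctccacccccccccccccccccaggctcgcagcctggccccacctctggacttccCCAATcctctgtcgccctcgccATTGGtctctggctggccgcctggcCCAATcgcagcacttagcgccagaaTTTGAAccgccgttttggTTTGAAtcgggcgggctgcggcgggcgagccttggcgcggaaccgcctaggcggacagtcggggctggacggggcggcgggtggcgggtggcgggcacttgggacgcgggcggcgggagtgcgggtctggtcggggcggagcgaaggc
The Top2a window held 6 CCAAT motifs and 2 TTTGAA motifs, counted on both strands, and the Mki67 window held 3 and 2. CCAAT occurred in 41.1% and TTTGAA in 20.2% of the 27025 genes with a promoter entry, and both occurred in 7.97%. Of the 38 mitosis genes with an entry, 28 held CCAAT, 30 held TTTGAA and 24 held both. Pimreg had no entry. The motifs were thus present in the promoter of the gene that was called and of the gene that was not, and a match is a description of the letters, not of a site in use.

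Of the 47 mitosis genes, 28 were tested, of which 2 were called lower and 0 higher. An unadjusted p under 0.05 in the lower direction was given to 4 of the 28, or 14.3%, against 1.57% of all genes tested, and 24 of the 28 had a negative log2 fold change. The median was −1.68, the lowest of the 24 lists examined. Members near 0 in NestinTK+ GCV mice, such as Pimreg, were tested only where every NestinTK- GCV library exceeded 1 CPM. The counts and the median of the tested members are therefore not free of the filter, whereas the summed level covers all 47 genes. The summed level of the list was 107, 86.5, 122, 103 and 65.9 CPM in A1 to A5 and 412, 160 and 284 CPM in G1 to G3, so that every NestinTK+ GCV library was below every NestinTK- GCV library. Pbk, a mitotic kinase, and Anln, a scaffold of the cleavage furrow that is also made by oligodendrocytes, were the other members with such a p, named after their values were seen. Pbk was at 0 CPM in every NestinTK+ GCV library except A3, where it was at 1.07 CPM, and at 10.1, 6.78 and 2.89 CPM in G1 to G3. Without G1 the median of the list was −1.15 and 2 members had such a p, whereas 7 had it without A4.

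Another 19 mitosis genes did not pass the filter. Those with the highest mean in NestinTK- GCV mice were Kif15, Cdk1, Hmmr and Tacc3. Hmmr, a spindle protein, had 1 read in NestinTK+ GCV libraries and 140 in NestinTK- GCV libraries. Cdk1, the kinase that drives entry into mitosis, was at 11.5 CPM in G1 and at 0 in G2 and G3, while A3 was at 2.86 CPM and the other NestinTK+ GCV libraries were at 0, so that its values rest on single libraries.

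**Figure D2:**
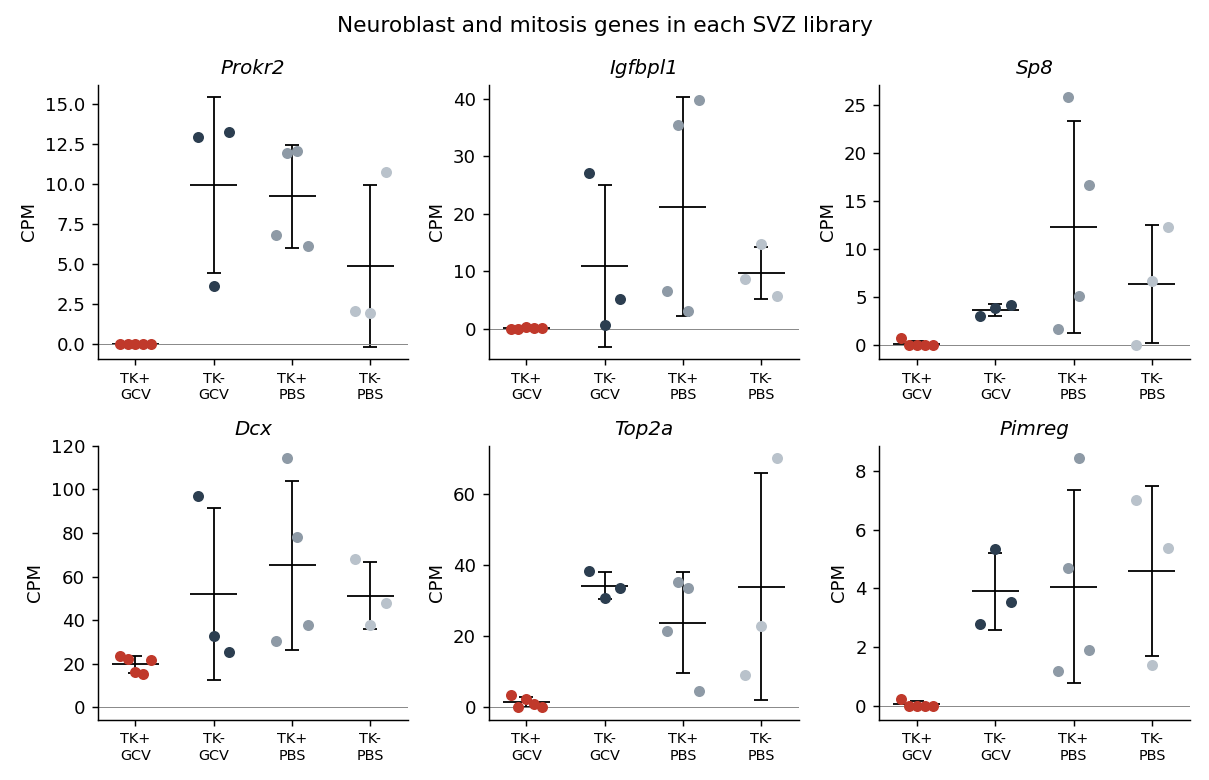
CPM of 4 neuroblast genes and 2 mitosis genes in each of the 15 SVZ libraries, with points for libraries and black lines for the mean and SD of each group. The red NestinTK+ GCV points lie below every NestinTK- GCV point for all 6 genes, and the spread of the control groups is wide, as for Igfbpl1 at 0.656 to 27.0 CPM in NestinTK- GCV mice.

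Of 40 genes of DNA replication, 28 were tested and 0 were called by edgeR's test, with 1 lower and 1 higher at an unadjusted p under 0.05. The lower gene was Lig1, the replicative DNA ligase, with a log2 fold change of −3.36, named after its values were seen. Mcm2, a subunit of the replicative helicase, was at 0.113, 1.06, 8.59, 0.313 and 12.4 CPM in A1 to A5 and at 12.6, 0.109 and 0 CPM in G1 to G3. Its groups overlapped, and the sign of its change depended on which library was left out. The list was at 212 to 408 CPM in NestinTK+ GCV libraries and at 213 to 430 CPM in NestinTK- GCV libraries, and its median log2 fold change was −0.49. When 1 library was left out, that median ran from −0.06, without G1, to −0.55, without A5, and it was −0.998 by limma-voom.

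Genes of stem and transit-amplifying cells gave no call among 31 tested, with a median log2 fold change of 0.05. Egfr, the receptor that drives the division of transit-amplifying cells, was at 9.35, 31.9, 33.4, 18.1 and 27.3 CPM in A1 to A5 and at 31.6, 15.7 and 19.0 CPM in G1 to G3, and the groups overlapped. Gsx2, a homeobox factor of the lateral germinal zone that did not pass the filter, had 1 read in NestinTK+ GCV libraries and 135 in NestinTK- GCV libraries, at 5.43, 5.46 and 0.908 CPM in G1 to G3.

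Nes, the source of the element that drives the transgene, was at 0.451, 0.355, 13.2, 10.6 and 1.20 CPM in A1 to A5 and at 9.18, 8.30 and 5.12 CPM in G1 to G3. A3 and A4 were above every NestinTK- GCV library and the other 3 below, and the log2 fold change of −0.45 ± 1.29 (SE) had an unadjusted p of 0.732 in edgeR's test. Gfap, the filament of astrocytes and of stem cells, was at 34.9, 51.1, 12.2, 31.6 and 30.9 CPM in A1 to A5 and at 233, 6.45 and 116 CPM in G1 to G3. G1 and G3 were above and G2 was below every NestinTK+ GCV library, so that the difference between the groups rests on 2 of the 3 NestinTK- GCV libraries. Hes5, a Notch target of stem cells and astrocytes, named after its values were seen, was at 5.98 to 47.6 CPM against 5.69 to 18.1 CPM, with an unadjusted p of 0.0374 in edgeR's test and no call.

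Oligodendrocyte genes had the largest share of members at an unadjusted p under 0.05 in the lower direction among the 24 lists. All 30 genes were tested, all 30 had a negative log2 fold change, and 2 were called lower. Such a p was given to 11 of 30, or 36.7%, against 1.57% of all genes tested. Over all genes tested 6863 of 14156 had a negative change. Members of some other lists also shared a direction. A positive change was seen in 30 of 35 spiny neuron, 24 of 30 astrocyte and 21 of 28 endothelial genes. It was also seen in all 7 mitochondrially encoded genes, whereas the microglia list was split, with 16 lower and 14 higher. The median log2 fold change of the oligodendrocyte list was −0.82. The summed level was 5796, 3273, 7139, 6505 and 7029 CPM in A1 to A5 and 14958, 6306 and 11200 CPM in G1 to G3. G2 lay within the range of the NestinTK+ GCV libraries, A2 lay below all others, and G1 and G3 lay above. The PBS libraries ranged from 4308 to 11490 CPM. Their median of 6810 CPM lay within the NestinTK+ GCV range and below G1 and G3.

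Opalin, a membrane glycoprotein of myelin (chromosome 19, 41061710 to 41077113), was at 31.3, 13.2, 31.9, 24.7 and 34.9 CPM in A1 to A5 and at 106, 57.7 and 94.3 CPM in G1 to G3. The groups did not overlap, and the log2 fold change was −1.53 ± 0.36 (SE), with an unadjusted p of 0.000903 in edgeR's test. The call was kept when any of the 8 libraries was left out. Of the PBS libraries, 4 were above every NestinTK+ GCV library in Opalin, and the rest lay within the NestinTK+ GCV range. The PBS median was 43.6 CPM, and the highest PBS library, at 81.1 CPM, was below G1 and G3. Cryab, a small heat shock protein abundant in oligodendrocytes, was at 93.7, 99.7, 198, 147 and 186 CPM in A1 to A5 and at 381, 223 and 411 CPM in G1 to G3, with a log2 fold change of −1.08 ± 0.28 (SE). Its exons share bases with Hspb2, and reads of the pair could be split between them. Cryab lost its call without A1, A2, G1 or G3.

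Further myelin genes, named after their values were seen, had log2 fold changes of −0.71 for Mbp, −0.68 for Mag, −0.57 for Cnp and −0.52 for Mobp, and none was called. Car2, a carbonic anhydrase of oligodendrocytes, had a log2 fold change of −0.98 and an unadjusted p of 0.00869 in edgeR's test, just short of 2-fold. Without G1 the median of the list was −0.58 and the number of members at such a p was 2, and without G2 it was −1.06 and 19. Oligodendrocyte precursor genes had 0 calls among 23 tested and a median of −0.13, and Pdgfra, their growth factor receptor, was at 2.98 to 45.8 CPM against 7.26 to 33.2 CPM.

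**Figure D3:**
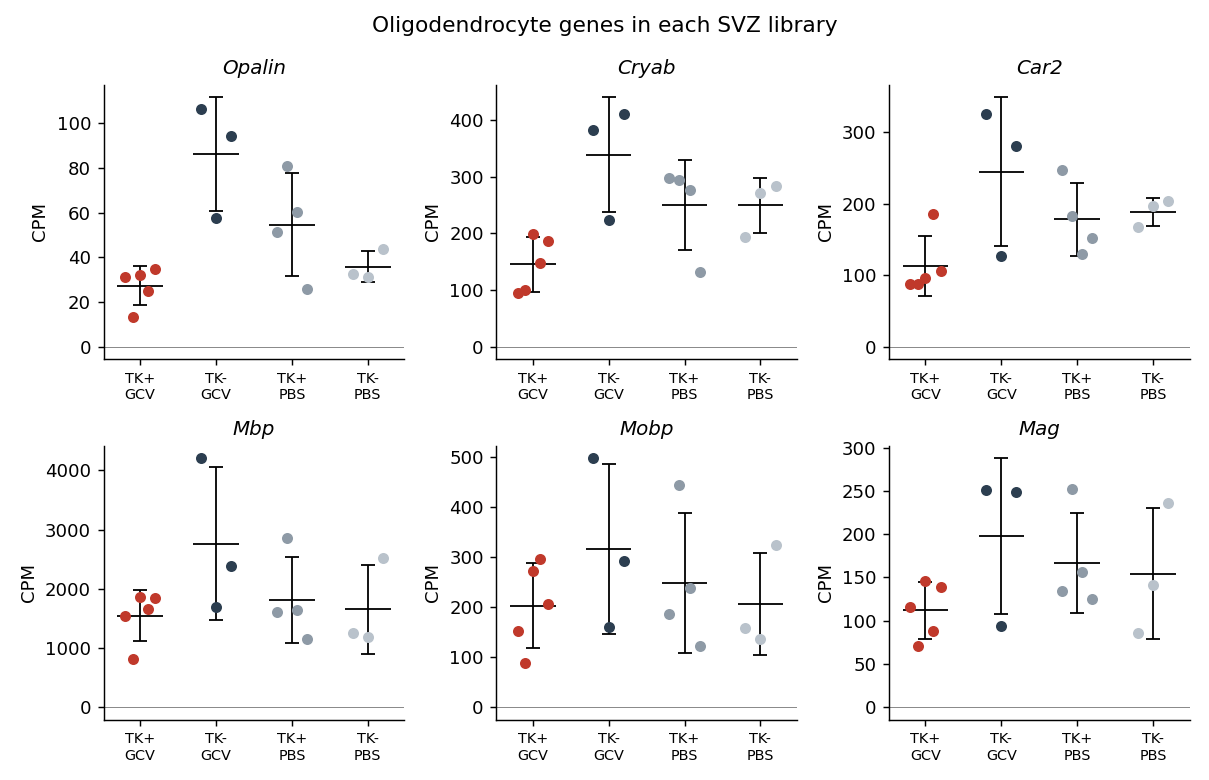
CPM of 6 oligodendrocyte genes in each of the 15 SVZ libraries, with points for libraries and black lines for the mean and SD of each group. Opalin and Cryab separate the NestinTK+ GCV libraries from the NestinTK- GCV libraries, whereas for Car2, Mbp, Mobp and Mag the lowest NestinTK- GCV library, G2, falls among the NestinTK+ GCV libraries.

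Calls were few among other cell classes of the tissue. Over all genes tested 0.24% were called lower and 0.283% higher. Ependymal and cilia genes had 1 call higher among 75 tested, Rfx3, a transcription factor of ciliogenesis, and a median log2 fold change of 0.12. Rfx3 was at 113, 122, 125, 94.8 and 61.5 CPM in A1 to A5 and at 53.8, 59.3 and 55.7 CPM in G1 to G3, with a log2 fold change of 1.02, close to the 2-fold limit. Only 2 of the 8 fits with a library removed kept its call. Foxj1, the master regulator of motile cilia, was at 57.1 CPM in A1 and at 4.26 to 19.1 CPM in A2 to A5, against 13.2 to 29.2 CPM, and its sign changed without A1. Cfap126, a ciliary protein, was at 0 to 14.2 CPM against 2.73 to 18.1 CPM.

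Astrocyte genes had 0 calls among 30 tested and a median of 0.20. Astrocyte reactivity genes had 1 call higher among 16, Osmr, against 0.283% of all genes tested, and a median of −0.12. Microglia genes had 0 calls among 30 and a median of −0.01. Within the microglia list, Csf1r, the receptor for colony stimulating factor, was at 84.2 to 137 CPM against 45.8 to 82.4 CPM, and Trem2, a lipid receptor, was at 11.7 to 30.9 CPM against 35.7 to 75.8 CPM. These 2 genes, named after their values were seen, did not overlap between the groups and lay in opposite directions, with log2 fold changes of 0.92 and −1.19 and unadjusted p-values of 0.0064 and 0.0244 in edgeR's test, and each met only part of the calling rule. They were the only 2 of the 30 without overlap, 1 in each direction. Over all genes tested the ranges did not overlap for 3.07% in the lower and 0.897% in the higher direction. Aif1, the microglial protein Iba1, was at 0.478 to 17.6 CPM against 7.98 to 28.9 CPM. Microglia activation, interferon, and p53 and apoptosis genes had 0 calls among 14, 23 and 22 tested, with medians of 0.13, −0.15 and −0.27. Cdkn1a, the p53 target p21, was at 0.597 to 28.2 CPM against 11.7 to 26.6 CPM.

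Endothelial genes had 0 calls among 28 and a median of 0.41, with Cldn5, a tight junction protein of brain vessels, at 21.8 to 63.6 CPM against 7.10 to 51.8 CPM. Mural and fibroblast genes had 0 calls among 17 and a median of 0.42. Spiny neuron genes had 0 calls among 35 and a median of 0.30, and Drd1 was at 140 to 401 CPM in A1 to A5 and at 269 to 349 CPM in G1 to G3. A2, lowest in Drd1, was also lowest in the summed spiny neuron and oligodendrocyte genes and highest in excitatory neuron genes, at 6001 CPM against 3184 to 3698 CPM in A1 and A3 to A5. GABAergic interneuron and excitatory neuron genes had 0 calls among 25 and 22, with medians of 0.18 and −0.35. Choroid plexus and blood genes had 0 calls among 8 and 9 tested, with medians of 0.72 and 0.63, and Ttr was at 4.06 to 187 CPM against 1.40 to 169 CPM.

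In the insulin-like growth factor (IGF) axis, 19 of 28 genes were tested, with 1 called lower, 1 called higher and a median of 0.06. Over all genes tested 0.24% were called lower and 0.283% higher. Igfbp5, a secreted IGF binding protein, was at 80.8, 45.7, 35.8, 87.4 and 64.6 CPM in A1 to A5 and at 234, 51.7 and 218 CPM in G1 to G3, with a log2 fold change of −1.27 ± 0.42 (SE). G2 fell among the NestinTK+ GCV libraries, and 3 of the 8 fits with a library removed kept the call. Grb10, an adaptor that dampens insulin and IGF receptor signalling, was at 24.4, 25.2, 78.4, 40.5 and 30.6 CPM in A1 to A5 and at 10.3, 13.0 and 19.0 CPM in G1 to G3. The Grb10 groups did not overlap, and its log2 fold change was 1.63 ± 0.52 (SE). The ligand Igf1 was at 9.46, 5.33, 0, 5.42 and 16.7 CPM in A1 to A5 and at 0, 4.81 and 5.61 CPM in G1 to G3, and its receptor Igf1r had a log2 fold change of 0.08, and both overlapped between the groups. Igfbpl1, which belongs to this axis as well, is described above. Irs1, an adaptor of the insulin and IGF receptors that was not tested either, was at 14.1 CPM in A2 and at 1.32 CPM or less in the other libraries.

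Among immediate early genes, 1 of 30 tested was called lower in NestinTK+ GCV mice, against 0.24% of all genes tested. This gene was Nr4a2, an orphan nuclear receptor. It was at 0.113, 0.828, 0, 0 and 0.359 CPM in A1 to A5 and at 14.2, 1.53 and 43.1 CPM in G1 to G3. G3 was the highest library and G2 the nearest to the NestinTK+ GCV range, and the log2 fold change was −5.94 ± 1.51 (SE). The call was lost without G3, where the change was −4.67. The PBS libraries ranged from 0 to 4.94 CPM, with a median of 1.085, and all lay below G1 and G3. The list had a median of −0.05. Niche signalling genes had 0 calls among 45 tested and a median of −0.09. The 7 mitochondrially encoded genes that were tested had 0 calls, a median log2 fold change of 0.55 and 3 members higher at an unadjusted p under 0.05, in the direction of the mitochondrial shares given above. With these genes left out of the counts, 34 genes were called lower and 42 higher, and 34 and 39 of these were calls of the full comparison.

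**Figure D4:**
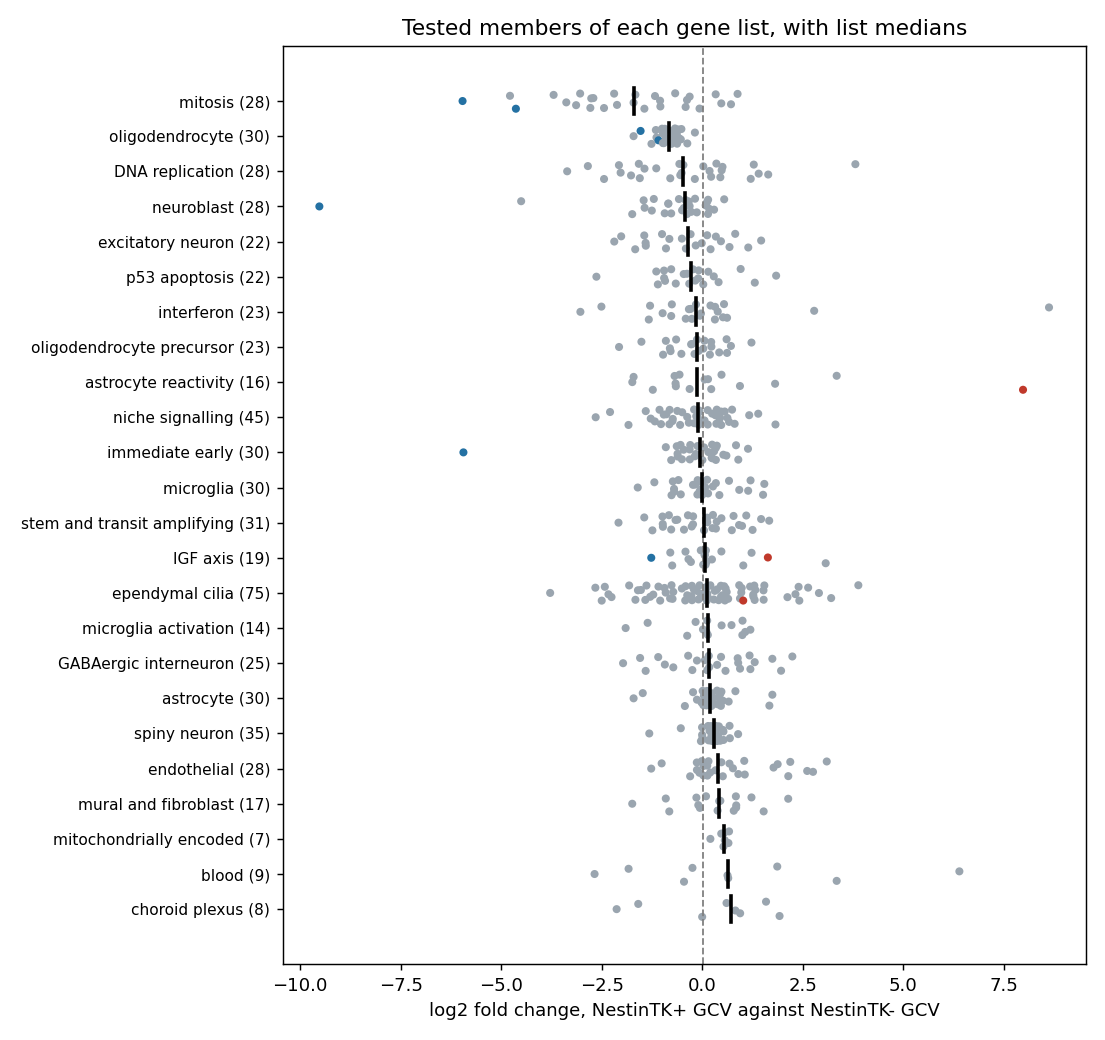
Log2 fold change of every tested member of the 24 gene lists, with the number tested in brackets, called members in blue (lower) or red (higher), list medians as black bars and the median of all genes tested as a dashed line. The mitosis list has the lowest median, −1.68, all points of the oligodendrocyte list lie below 0, and the other medians lie between −0.49 and 0.72.

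The remaining called genes with large negative changes and separate groups were at or near 0 in NestinTK+ GCV libraries. Vipr2, a receptor for vasoactive intestinal peptide, had 0 counts in all NestinTK+ GCV libraries and 6.90, 1.42 and 4.12 CPM in G1 to G3, a level at least 12.0-fold lower. Gm42492, a gene model that is not annotated as protein coding, and Gm4876 and Egfl8 were likewise at 0 in all NestinTK+ GCV libraries, at least 16.6-fold, 10.0-fold and 9.45-fold lower. Gm4876 is antisense to Tes and shares exon bases with it, and Egfl8 shares them with Agpat1, so that reads of these pairs cannot be told apart where counting ignored strand. BC043934, a long noncoding RNA, was at 0.313 CPM in A4, at 0 in the other NestinTK+ GCV libraries, and at 2.64 to 14.8 CPM in NestinTK- GCV libraries, and Piezo2, a mechanically gated channel, was at 0.118 CPM in A2, at 0 in the others, and at 1.76 to 5.78 CPM. Sspo, a secreted glycoprotein of the ventricular lining near the subcommissural organ, was at 0.338, 0, 0, 0.104 and 0.12 CPM in A1 to A5 and at 7.27, 3.06 and 21.9 CPM in G1 to G3. In PBS libraries Vipr2 reached at most 0.222 CPM, far below the NestinTK- GCV libraries, whereas Sspo ranged from 0.0754 to 6.35 CPM. The PBS medians were 0 for Gm42492, 0.181 for Piezo2, 0.528 for BC043934, 0.965 for Egfl8 and 3.49 for Gm4876. All of these medians but that of Gm4876 lay below every NestinTK- GCV library.

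In the higher direction, Pomc, the precursor of melanocortins and beta-endorphin, was at 0.338, 18.6, 17.5, 11.3 and 17.2 CPM in A1 to A5 and at 0, 0.109 and 0.0825 CPM in G1 to G3. A1 was far below the other NestinTK+ GCV libraries but above the NestinTK- GCV libraries. The ratio of summed reads per total count was 223-fold higher, with a 95% exact interval of 61.5 to 1850. The PBS libraries ranged from 2.66 to 13.3 CPM, above all 3 NestinTK- GCV libraries, so that the NestinTK- GCV libraries were the lowest of the 4 groups.

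Mtm1, a lipid phosphatase, was at 13.8, 7.81, 18.0, 6.57 and 3.35 CPM in A1 to A5 and at 0.294, 0 and 0 CPM in G1 to G3, and its call was kept when any of the 8 libraries was left out. Osmr, the receptor of oncostatin M and a gene of reactive astrocytes, was at 16.4, 0.237, 27.7, 0.938 and 1.55 CPM in A1 to A5 and at 0.0734, 0 and 0 CPM in G1 to G3. The Osmr level rested on A1 and A3, and its ratio of 321-fold had an interval of 57.3 to 12700.

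Fgf18, a secreted growth factor, and Tmc4, which shares exon bases with Leng1, were at 0 in all NestinTK- GCV libraries and were at least 10.9-fold and 14.5-fold higher. Gm37211, a gene model not annotated as protein coding, was at 2.29 to 10.9 CPM against 0, at least 23.3-fold higher. Abcb4, a phospholipid transporter, Tfpi, an inhibitor of coagulation, and Gm26798, a long noncoding RNA that shares exon bases with Ppp6r2, had 1 to 3 reads in NestinTK- GCV libraries in all. Their ratios were 191, 83.1 and 238, with lower bounds of 34.0, 28.2 and 42.4. Tfpi kept its call in 2 of the 8 fits with a library removed. Pcdhga12 was at 5.74, 6.98, 32.3, 16.5 and 11.4 CPM in A1 to A5 and at 1.40, 0.874 and 1.32 CPM in G1 to G3, but it shares exon bases with 26 other gene models, the gamma-protocadherin genes among them, between which reads could be split.

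Ndnf, Rgs11 and Zfp280b had reads in all 8 libraries and are added because they were among the called genes with adjusted p under 0.05 in DESeq2, a choice made after their values were seen. Ndnf, a secreted neurotrophic factor, had the smallest p of all genes tested and was at 17.6, 29.6, 16.0, 21.2 and 28.6 CPM in A1 to A5 and at 3.52, 1.31 and 2.15 CPM in G1 to G3, or 22.6 ± 6.24 (SD, n = 5) against 2.33 ± 1.12 (SD, n = 3). The groups did not overlap, and the log2 fold change was 3.42 ± 0.75 (SE), with an unadjusted p of 0.00049 in edgeR's test. The PBS libraries ranged from 1.89 to 76.1 CPM, wider than both GCV groups. Rgs11, a regulator of G protein signalling that shares exon bases with Arhgdig, was at 19.6 to 83.0 CPM against 5.36 to 7.98 CPM, and Zfp280b, a zinc finger protein, was at 12.5 to 50.6 CPM against 0.66 to 5.14 CPM. Their log2 fold changes were 2.66 ± 0.61 and 3.28 ± 0.84 (SE).

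**Figure D5:**
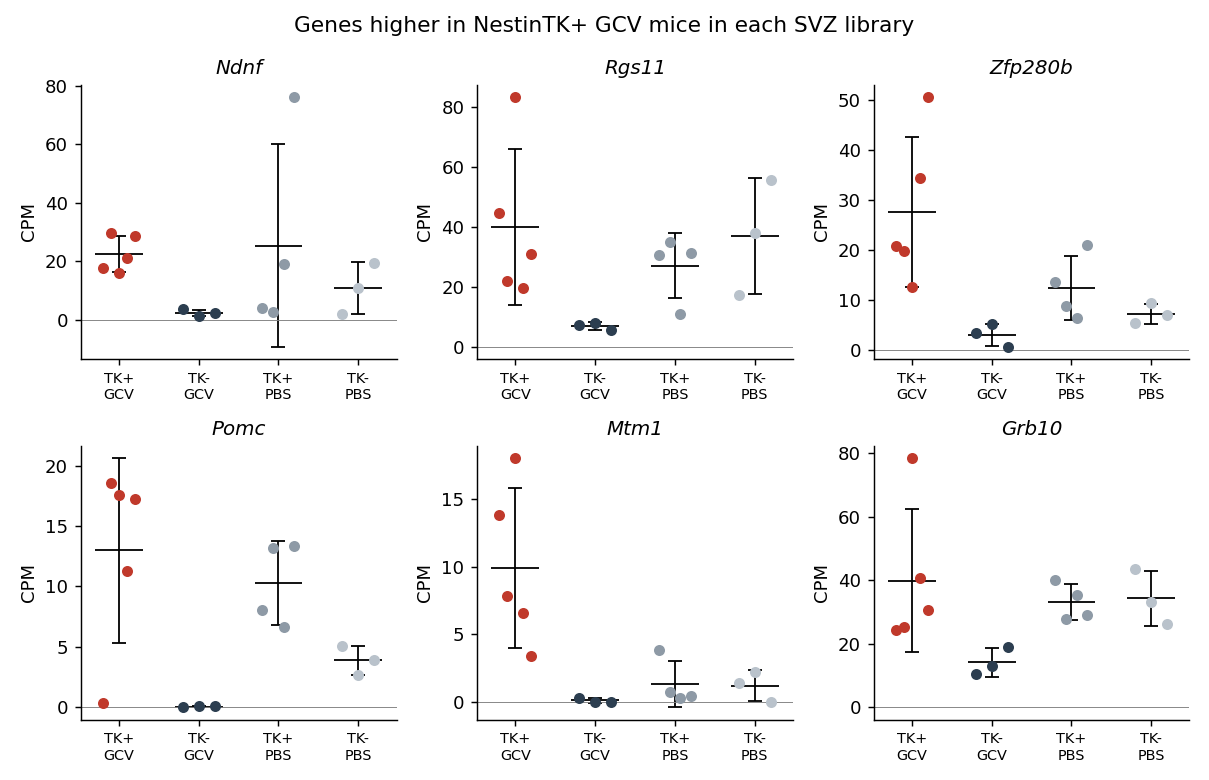
CPM of 6 genes called higher in each of the 15 SVZ libraries, with points for libraries and black lines for the mean and SD of each group. For each gene the NestinTK+ GCV libraries lie above the NestinTK- GCV libraries, while the PBS libraries can lie within or outside both ranges, as for Ndnf at 1.89 to 76.1 CPM.

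Among the 22 genes of cell classes and of the IGF axis that were compared one at a time on log2 CPM by a two-sided exact permutation test, Igfbpl1, Prokr2, Dlx2, Sp8 and Top2a each had a p of 0.0357, the smallest that 5 against 3 libraries can give. For each of them all 5 NestinTK+ GCV libraries were below all 3 NestinTK- GCV libraries. After Benjamini-Hochberg adjustment over the 22 genes the exact p of these 5 was 0.157, and no gene was under 0.05. Dcx had an exact p of 0.107. The 22 genes were chosen with earlier results of these data known, so these p-values are a description and not separate support.

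Whether the difference between genotypes under GCV differed from that under PBS was tested as an interaction over the 15 SVZ libraries and 16375 genes. The same calling rule was met by 139 genes, or 0.849%, of which 66 were lower and 73 higher. With Benjamini-Hochberg adjustment 0 genes had an adjusted p under 0.05 in edgeR's test, the smallest being 0.651, while 829 had an unadjusted p under 0.05 and limma-voom gave 1 gene under an adjusted p of 0.05. This test uses the same GCV libraries as the comparison above, so it is not independent of it. The library numbers in the labels run from 1 to 9 for GCV and from 13 to 20 for PBS libraries, and drug and numbering cannot be told apart. Under GCV the genotypes are not mixed evenly over the numbers, which are 1 to 4 and 9 for NestinTK+ and 5, 6 and 8 for NestinTK- libraries. G1 also has the lowest mouse number of the GCV libraries, apart from the others and near those of the NestinTK- PBS mice. Whether either numbering goes with the difference between genotypes was not tested.

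For Top2a the log2 difference between NestinTK+ and NestinTK- mice was −4.63 under GCV and −0.56 under PBS, and the interaction was −4.07 ± 1.46 (SE), with an unadjusted p of 0.0121 in edgeR's test and no call. For Opalin the difference was −1.53 under GCV and 0.56 under PBS, and the interaction of −2.09 ± 0.55 (SE) met the calling rule. For Dcx the difference was −1.25 under GCV and 0.28 under PBS, with an unadjusted interaction p of 0.0385 in the same test. Mki67 differed by −1.17 under GCV and by −1.14 under PBS, and its interaction was −0.03 ± 1.32 (SE). Under PBS alone, none of these 4 genes differed between genotypes at an unadjusted p under 0.05 in edgeR's test.

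The calls depended on single libraries. Without G1, and with the genes tested kept, 19 genes were called lower and 17 higher, and they held 16 of the 34 and 9 of the 40 calls of the full comparison. Without G2 the fit held 25 and 12 of those calls, and without G3 it held 21 and 10. Leaving out 1 NestinTK+ GCV library held 25 to 29 of the lower and 20 to 26 of the higher calls, while the number called lower rose to 85 without A2 and to 59 without A4. Top2a, Opalin, Prokr2, Pimreg, Pomc and Mtm1 were called in each of the 8 fits that left out 1 library in this way. Tmc4, Osmr, Fgf18, Gm26798, Abcb4 and Pcdhga12 were called in 4 to 6 of them. The calls also depended on the tool, since limma-voom held 32 of the 34 lower but 11 of the 40 higher calls. Top2a, Opalin, Prokr2 and Mtm1 were called by limma-voom and without the filter as well. Pomc, Tmc4, Osmr, Gm26798, Tfpi, Pcdhga12, Rfx3, Grb10 and Igfbp5 were not called by limma-voom, and Pimreg was not called without the filter. G1 was the highest library in Dcx, Igfbpl1, Gfap and the summed oligodendrocyte and mitosis genes.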

How the data were processed

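RNA of dissected SVZ was made into libraries with a low-input SMART-Seq kit with amplification and sequenced single-end. Per the submitters' processing notes and the study's methods, reads were trimmed with Trimmomatic, aligned with STAR 2.5.3a to mm10 and counted per gene with featureCounts. The deposited values are raw counts per gene that the authors did not normalize. Whether counting used strand is not given in the sources used here. The libraries carried no molecular identifiers, so reads can be copies of 1 molecule, and intervals cover counting error only. Amplification may add to the spread of low genes.

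Samples were grouped by genotype and treatment in the labels. The filter kept genes above 1 CPM in 3 or more of the 8 libraries, which were tested with edgeR 4.0.16 (TMM factors, quasi-likelihood test, Benjamini-Hochberg adjustment), and DESeq2 1.42.0 and limma 3.58.1 were used as alternatives. The interaction was fitted over 15 libraries. Each p-value sets a difference against the spread between libraries, 1 per mouse, in 1 experiment. Spread between mice and spread from dissection or library preparation cannot be told apart in it. Single genes and library measures were compared by exact permutation tests. Fold bounds use a floor of 3 counts per library, and ratios with 1 to 3 counts in a group have 95% exact intervals. Overlap in CPM was judged without TMM factors.

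The genes named were in each direction the 10 calls of largest size without overlap, the 22 single genes, up to 6 called members of each list and up to 4 members of each list that did not pass the filter. For the last class, only the members that add to a result are described, and a few genes that the rule names are not reported here. The comparison, the members and the gene lists were chosen with earlier results of these data known. Gene positions and exon sharing were read from a GENCODE annotation of GRCm38, in which 93.3% of the symbols were found, and promoters from RefSeq.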

Additional observations from a re-analysis of the deposited data

Results flagged for a closer look

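In the 5 NestinTK+ GCV libraries, 48 values (single genes, library measures and summed lists, in CPM) were examined for 1 library apart from the others by Dixon's criterion, which chance meets in about 1 of 20 groups, and 6 met it. A1 was apart in Sp8, at 0.676 CPM against 0 in the other libraries, and in Foxj1, at 57.1 CPM against 4.26 to 19.1. A3 was apart in the DNA replication genes, at 408 CPM against 212 to 237. A2 was apart in the excitatory neuron genes, at 6001 CPM against 3184 to 3698, and in the spiny neuron genes, at 10170 CPM against 24150 to 29280. A5 was apart in the immediate early genes, at 3168 CPM against 1164 to 1627. The CPM scale was chosen after both scales had been seen. On the log2 scale 8 of 45 values met the criterion, 4 of them shared with the CPM scale (Sp8, DNA replication, excitatory neuron and spiny neuron genes) and the others being Aif1 in A5, Drd1 in A2, Igf1 in A3 and the oligodendrocyte genes in A2.

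The difference between genotypes under GCV differed from that under PBS, by the interaction test and the unadjusted calling rule, for 15 named genes. Over all 16375 genes 139, or 0.849%, met that rule. Many of the 15 were named for a large difference in the same GCV libraries, so their number is not a separate result. The interaction had the sign of the GCV difference for all 34 genes called lower and all 40 called higher. In the lower direction the interaction log2 values were −10.67 for Prokr2, −9.58 for BC043934, −8.04 for Gm4876, −7.73 for Sspo, −7.64 for Igfbpl1, −7.55 for Nr4a2 and −2.09 for Opalin. In the higher direction they were 12.11 for Tmc4, 10.67 for Gm37211, 9.19 for Osmr, 6.34 for Pomc, 5.77 for Abcb4, 4.70 for Pcdhga12, 1.75 for Grb10 and 1.28 for Rfx3. The values of genes without reads in a group depend on the prior count and are not bounds. With Benjamini-Hochberg adjustment in edgeR's test the adjusted p was 0.651 for Prokr2 and 0.942 for the other genes, so none passed. Igfbpl1 was added after its values were seen.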

How the results depend on the processing

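Against 34 genes called lower and 40 higher, 125 and 96 were called without a filter, and 61 and 27 with the filter at 2 libraries. DESeq2 called 57 and 159 (18 at an adjusted p under 0.05) and limma-voom 95 and 23. With all 15 libraries in the fit 56 and 68 were called. Leaving out 1 library gave 7 to 70 lower and 16 to 62 higher, lowest without G1 in both directions. With the tested genes kept, an alternative chosen after seeing the data, the ranges were 19 to 85 (19 without G1, 59 without A4 and 85 without A2) and 17 to 55. For the interaction limma-voom gave 101 lower and 1 gene at an adjusted p under 0.05, and leaving out 1 library gave 32 to 109 lower, 44 to 105 higher and 0 to 1 gene at that adjusted p. The causes were not tested.

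Of 1041 values of 45 named genes under an alternative, 917 kept direction and side of the threshold, 99 lost a call, 8 gained one and 17 changed sign, all of 3 genes that were not called. Mcm2, at 0.18, was −0.18, −0.63, −0.38 and −0.39 without A3, A5, G2 and G3, and 6.18 without G1. Foxj1, at 0.20, was −0.34 by limma-voom and −0.66 without A1, and at most 0.55, without G3. Cfap126, at −0.21, was 0.07, 0.12 (0.11 with the tested genes kept) and 1.31 without A4, A5 and G1, and −0.74 without A3. The median kept its sign in 14 of the 24 gene lists and changed it under at least 1 alternative in the other 10. The interferon median, at −0.15, was 0.98 without G1 (1.02 with the tested genes kept), and that of astrocyte reactivity, at −0.12, was 0.42 without G1. The excitatory neuron median, at −0.35, was 0.27 without G3 and the blood median, at 0.63, was −0.32 without A2, both with the tested genes kept, and the immediate early median, at −0.05, was 0.41 without G2. The ependymal median, at 0.12, was −0.49 by limma-voom. The medians of stem and transit-amplifying, microglia, microglia activation and IGF axis genes, at 0.05, −0.01, 0.13 and 0.06, ran from −0.16 to 0.41, −0.15 to 0.19, −0.0024 to 0.40 and −0.12 to 0.25. No paired analysis was possible because the labels give the groups no shared replicate numbers. Genes of a few CPM rest on few reads, and how far depth, apart from the spread between mice, limited the calls was not tested.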
